A study of Mus musculus with 36 samples.

Results

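In primed mouse ES cells, the RNA content of P-bodies was measured gene by gene against that of the cytoplasm from which they had been sorted. Genes entered the comparison when they had at least 10 reads summed over 2 P-body and 2 cytoplasm libraries, which 16177 of the 25239 genes in the deposited table did. Of the 9062 genes left out, 5605 had 0 reads in all 4 libraries and 3457 had 1 to 9. At the edge of this rule, 137 members had exactly 10 reads and 143 genes just outside had 9.

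The cells were v6.5 mouse ES cells, an F1 line of C57BL/6 and 129S4Sv/Jae background, grown in the naive state and then moved to the primed state with activin A, bFGF and KnockOut Serum Replacement on Matrigel. All of them carried a lentiviral GFP-LSM14A construct driven by the EF1a promoter, the P-body marker used for sorting, so both fractions come from cells that carry it. Lysates were freed of nuclei and pelleted, the resuspended pellet was the cytoplasmic fraction, and GFP-positive particles sorted from it were the P-body fraction. The same pair of fractions, with 2 libraries each, was read from naive ES cells (v6.5, 2i and LIF) and from mouse embryonic fibroblasts labelled MEF-ctrl, taken from embryos. By the study's methods these cells carried the construct as well. Fibroblasts came from wild-type mice and from mice with an inducible cassette of reprogramming factors, and the labels do not say which were used here. The study calls the samples of a group biologically independent, while the labels do not tie libraries to separate cultures, and p-values measure the spread between these libraries.

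P-bodies are cytoplasmic granules without a membrane in which mRNAs gather with the decapping machinery, the helicase DDX6 and proteins that repress translation. An mRNA held there is mostly not being translated. Primed ES cells stand for the epiblast after implantation, a stage at which pluripotency genes are still on while genes for later lineages begin to be transcribed.

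The P-body libraries held 12005242 and 11821036 assigned reads and the cytoplasm libraries 6769727 and 8019404. Over the 10017 genes with a mean level of at least 10 CPM (a gene's reads scaled by the size of its library), the 2 P-body libraries differed with an SD of 0.14 on the log2 scale and the 2 cytoplasm libraries with an SD of 0.23. The cytoplasm libraries, which were the shallower ones, differed more.

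The label primed was checked in the cytoplasm against naive cells. Of 23 naive factors tested there, 21 were higher in naive and 1 in primed cytoplasm, and of 23 primed and formative factors 18 were higher in primed and 1 in naive cytoplasm, while over all 16125 genes tested 21.6% were higher in primed and 22.1% in naive cytoplasm. Esrrb, an orphan nuclear receptor of the naive network, was at 18.7 and 20.4 CPM in primed against 137 and 126 CPM in naive cytoplasm, and Tfcp2l1 was at 17.1 and 12.9 against 323 and 286 CPM. Fgf5, the classical marker of the post-implantation epiblast, had 209 and 233 reads in primed and 0 in both naive cytoplasm libraries. Otx2 was at 31.1 and 32.1 against 4.7 and 3.65 CPM, and Dnmt3b at 471 and 528 against 34.4 and 62.8 CPM. Of the trophoblast factors Cdx2 had 6 reads over the 4 primed libraries and Elf5 had 3. The fibroblast marker Thy1 had 7 reads, Col1a1 was at 2.53 and 2.91 CPM in P-bodies and 4.21 and 2.72 CPM in cytoplasm, and the 9 fibroblast genes tested summed to 155 to 230 CPM per primed library against at most 60.2 CPM per naive library. Col1a2, another fibroblast collagen, was at 7.85 and 9.24 CPM in primed P-bodies and 10.8 and 6.56 CPM in primed cytoplasm, against 0.448 and 0.146 CPM in naive cytoplasm, a log2 difference of 4.53 between the cytoplasms (adjusted p = 0.00239). The trophoblast genes tested summed to 299 to 395 CPM per primed library and 145 to 293 CPM per naive library. Some defining markers of other lineages were higher in primed than in naive cytoplasm. The log2 differences were 3.61 for Pax6, 3.3 for Sox1, 3.5 for T, 2.19 for Gata6 and 1.85 for Mixl1, most on few reads. Foxa2 had 17 and 25 reads in primed and 0 in both naive cytoplasm libraries, while Sox17 (0.18) and Eomes (-0.33) did not pass. The part of these genes in the results was not tested.

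In all, 4288 genes (26.5% of those tested) were enriched in P-bodies and 3921 (24.2%) were depleted at an adjusted p under 0.05 in edgeR's quasi-likelihood test with Benjamini-Hochberg adjustment. Enrichment means a higher share of the P-body library than of the cytoplasm library, not a higher number of molecules. The median log2 fold change was 0.78 over enriched and -0.71 over depleted genes. Of the 10017 genes of at least 10 CPM, 34.7% were enriched and 29.7% depleted, and counts in lists of well-expressed genes are to be read beside these shares. A change of more than 2-fold was reached by 1553 enriched and 1215 depleted genes, and a log2 fold change past 3 by 114 and 70. P-body and cytoplasm libraries did not overlap in CPM for 75.2% of all genes tested, which is the background against which any such count should be read. Among enriched genes the fractions did not overlap for all 4288, and among depleted genes for 3918 of 3921.

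**Figure D1:**
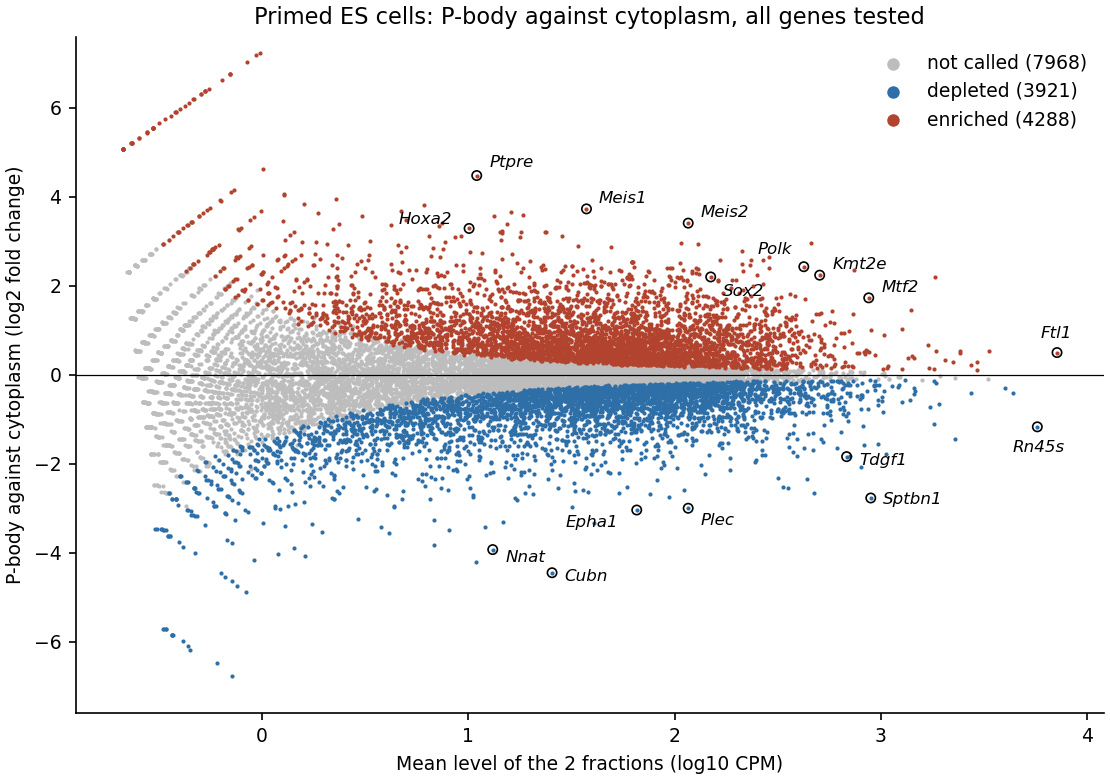
Log2 fold change of P-bodies against cytoplasm in primed ES cells (vertical axis) against the mean level of both fractions in log10 CPM (horizontal axis) for the 16177 genes tested. Red points are the 4288 enriched and blue points the 3921 depleted genes, and the diagonal rows at the left are genes with 0 or very few reads in a fraction, whose fitted fold changes depend on the fit and are no bounds.

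Before the genes are described one by one, stretches of their coding sequence show a feature along which enriched and depleted genes differed. Each line below holds 60 bases from the middle of the coding sequence of the longest GENCODE M21 transcript (mm10), written from 5′ to 3′ and in frame. Capitals mark codons that end in G or C. The first 4 genes were among the most enriched members of their lists, the next 2 were enriched although their codons often end in G or C, and the last 3 were depleted.
Zfp948: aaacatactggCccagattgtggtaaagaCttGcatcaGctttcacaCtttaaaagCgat
Zfp60: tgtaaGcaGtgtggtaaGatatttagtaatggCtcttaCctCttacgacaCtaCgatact
Polk: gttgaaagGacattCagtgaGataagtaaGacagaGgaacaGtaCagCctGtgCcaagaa
Kmt2e: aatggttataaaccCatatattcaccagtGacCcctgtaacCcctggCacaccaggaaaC
Sox2: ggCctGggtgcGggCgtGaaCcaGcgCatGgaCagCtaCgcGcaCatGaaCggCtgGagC
Hoxa2: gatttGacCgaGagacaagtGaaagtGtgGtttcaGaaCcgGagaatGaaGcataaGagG
Plec: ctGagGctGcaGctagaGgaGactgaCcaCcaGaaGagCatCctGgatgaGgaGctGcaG
Lama5: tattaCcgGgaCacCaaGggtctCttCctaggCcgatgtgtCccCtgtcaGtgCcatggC
Epha1: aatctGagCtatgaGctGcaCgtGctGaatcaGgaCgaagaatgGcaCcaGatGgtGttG
In these windows 6 of 20 codons ended in G or C in Zfp948 (chr17:21567008-21588699) and in Kmt2e (chr5:23434441-23504235), 8 in Zfp60 (chr7:27731389-27753702) and 10 in Polk (chr13:96480690-96542579). The count was 17 in Plec (chr15:76170974-76232574), 15 in Epha1 (chr6:42358487-42373268) and 13 in Lama5 (chr2:180176373-180225859). Over the whole coding sequence the share of codons that end in G or C (GC3) was 33.3% in Zfp948, 39.4% in Kmt2e and 75.5% in Plec. It was 41.8% in Zfp60, 43.0% in Polk and 67.5% in Lama5. In the depleted Epha1 it was 60.4%, under the median of 61.4% over all genes tested and under the enriched Hoxa2. Sox2 (chr3:34650405-34652461), at 19 of 20 codons in the window and 90.3% over the coding sequence, was nevertheless enriched, so composition alone did not separate the sides. Hoxa2 (chr6:52162417-52164831) was likewise enriched with 13 of 20 codons and 62.6%.

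Across the 9640 genes of at least 10 CPM with a coding sequence, GC3 and the log2 fold change had a Spearman correlation of -0.377, a description across genes, which share the same 4 libraries and are not independent replicates. GC over the first 2 codon positions gave -0.292, GC of the 3′ untranslated region -0.381 and GC of the 5′ untranslated region -0.174. GC of the whole transcript gave -0.452 over 9869 genes. In the quintile of genes with the lowest GC3 (median 42.2%), 63.3% were enriched and 12.9% depleted, with a median log2 fold change of 0.44. In the quintile with the highest GC3 (median 72.9%), 42.9% were depleted, with a median of -0.19. The next quintile (median 65.9%) had 18.7% enriched and 42.5% depleted. All 10017 genes of at least 10 CPM had 34.7% enriched and 29.7% depleted. The part of base composition in the result was not tested.

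**Figure D2:**
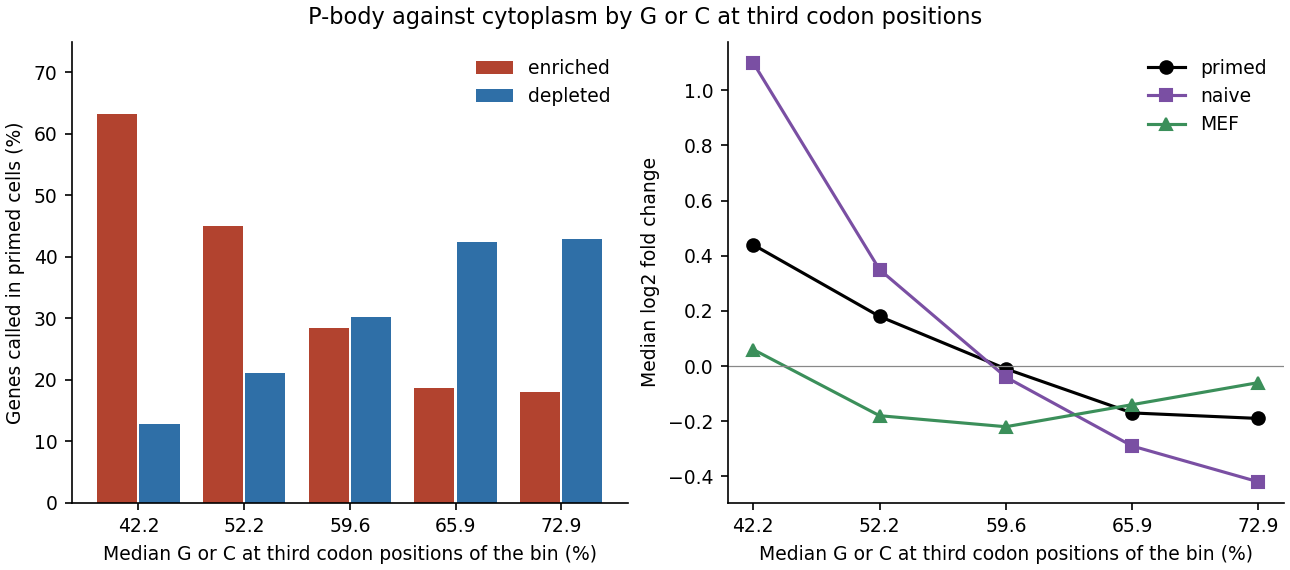
Left, share of genes enriched (red) and depleted (blue) in primed P-bodies, in percent, for 5 bins of 1928 genes each ordered by the share of codons ending in G or C; the horizontal axis gives each bin's median share in percent. Right, median log2 fold change of the same bins in primed ES cells, naive ES cells and MEFs: it falls from 0.44 to -0.19 in primed, from 1.1 to -0.42 in naive cells and runs from 0.06 to -0.06 in MEFs.

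Coding length showed a second relation. The longest quintile of coding sequences (median 3573 bases) had 26.2% enriched and 49.7% depleted genes, and the shortest quintile (median 528 bases) 37.9% and 17.3%. The Spearman correlation of coding length with the fold change was -0.181 over the same 9640 genes. Within quintiles of GC3, from the lowest to the highest, it was -0.0725, -0.215, -0.276, -0.371 and -0.386. The lean of long coding sequences towards the cytoplasm was thus weakest in the lowest quintile and grew with GC3. The corresponding correlation over all genes of at least 10 CPM was 0.0885 in naive cells and -0.566 in MEFs.

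The genes with the largest enrichment held several regulators of body axis and hindbrain patterning. Meis1 (chr11:18879817-19018985) and Meis2 (chr2:115863064-116065839) encode TALE homeodomain proteins that bind DNA together with Hox proteins. Meis2 was at 211 and 214 CPM in P-bodies and 19.5 and 20.5 CPM in cytoplasm, and Meis1 at 70.8 and 68.3 CPM against 6.1 and 4.46 CPM. The fractions stood far apart in every library of both genes, with log2 fold changes of 3.41 (SE 0.083, adjusted p = 3.64e-11) for Meis2 and 3.73 (SE 0.14, adjusted p = 1.01e-09) for Meis1. Hoxa2, which patterns the hindbrain and branchial arches, was at 17.6 and 19.2 CPM in P-bodies and 1.02 and 2.6 CPM in cytoplasm, a log2 fold change of 3.29 (SE 0.27). Rarb (chr14:16430839-16819156), a retinoic acid receptor, was at 26.2 and 26.4 CPM against 1.74 and 3.71 CPM, a log2 fold change of 3.23 (SE 0.23); 34.1% of its exon length overlaps Top2b, and without strand the reads of overlapping genes cannot be told apart. Tshz1, a zinc finger homeobox factor, was at 31.5 and 33.5 CPM against 1.45 and 5.32 CPM.

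The same set held secreted and cell surface proteins. Fst (chr13:114452290-114458951) encodes follistatin, which binds and blocks activin, an agent in the culture medium of these cells. Its level was 32.8 and 35.1 CPM in P-bodies against 2.76 and 2.85 CPM in cytoplasm, a log2 fold change of 3.59 (SE 0.17, adjusted p = 5.93e-09). Pcdh18 (chr3:49743296-49757325), a protocadherin outside the clustered loci, was at 29.0 and 30.9 against 2.33 and 2.35 CPM, and the ephrin receptor Epha4 at 44.5 and 40.7 against 4.8 and 4.46 CPM. In each of these 3 genes the replicates of a fraction lay close together and far from the other fraction. Ptpre, a receptor protein tyrosine phosphatase, had the largest fitted value, but its cytoplasm rested on 4 and 10 reads. The 12 largest enrichments also held Ier5l, Kctd12b and the methyl-CpG binding protein gene Mbd2, with log2 fold changes of 3.58, 3.38 and 3.2.

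Among the 12 largest depletions was Plec, which encodes the large linker protein plectin and was at 24.9 and 27.0 CPM in P-bodies and 224 and 190 CPM in cytoplasm, a log2 fold change of -3.0 (SE 0.098, adjusted p = 3.09e-10). Sptbn1 (chr11:30099395-30268175), a spectrin of the membrane skeleton, was at 221 and 235 against 1715 and 1401 CPM, a log2 fold change of -2.77 (SE 0.08). Both cytoplasm libraries exceeded both P-body libraries several times over for either gene. Epha1, an ephrin receptor switched on in primed cells, was at 11.7 and 16.6 CPM against 119 and 114 CPM, a log2 fold change of -3.04 (SE 0.13). Ackr4, an atypical chemokine receptor, was at 8.11 and 6.5 against 76.3 and 71.5 CPM. The imprinted genes Nnat and Mest had log2 fold changes of -3.93 (SE 0.24) and -2.98 (SE 0.13); Mest shares 23.1% of its exon length with Copg2, so part of its count is uncertain. Pramef12 (-3.43) belongs to a multigene family whose reads the counting could split. The 12 largest depletions also held Cubn (-4.45), Ephx3 (-4.21), Spon1 (-2.82) and Amot (-2.77).

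**Figure D3:**
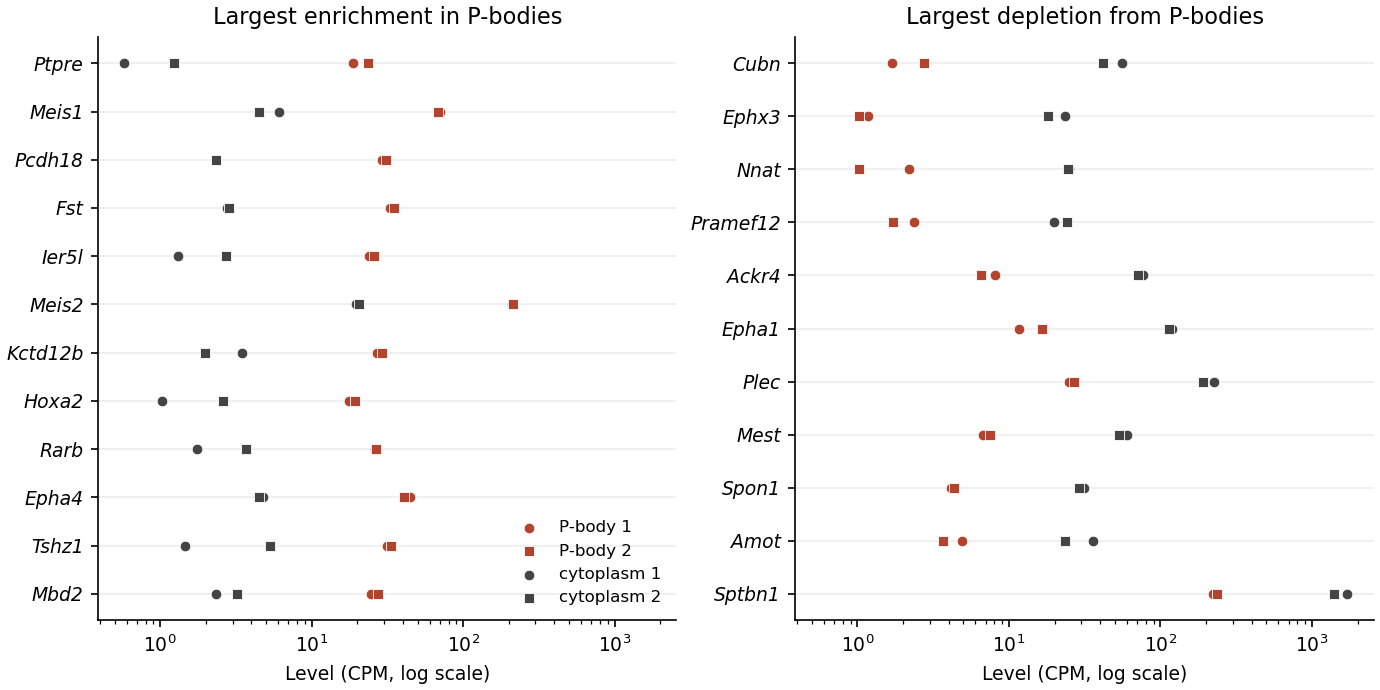
Level in CPM (log axis) of the 12 genes with the largest enrichment (left) and 11 of the 12 with the largest depletion (right) in each of the 4 primed libraries; red marks are P-bodies, dark marks cytoplasm, circles replicate 1 and squares replicate 2. In every gene shown both P-body libraries lie on 1 side of both cytoplasm libraries, the property by which these genes were chosen, as 75.2% of all genes tested do.

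Hox genes give cells their position along the head-to-tail axis and are mostly silent or low in ES cells. Of the 39 Hox genes listed, 30 were tested, the other 9 having under 10 reads, and 17 of the 30 were enriched and 0 depleted, with a median log2 fold change of 1.12 against 0.0 over all genes tested. The count of depleted Hox genes was also 0 at an unadjusted p under 0.05 and by DESeq2, which called 12 enriched. Levels were low, and 5 of the 30 reached a mean of 10 CPM. Hoxa5 was at 51.7 and 60.8 CPM in P-bodies and 14.5 and 12.9 CPM in cytoplasm, a log2 fold change of 2.04 (SE 0.13). Hoxb1, Hoxb2, Hoxa9 and Hoxa10 were enriched at 0.6, 0.99, 1.32 and 0.77. Hoxc9 had 46 reads over the P-body libraries and 0 over the cytoplasm libraries, which with a floor of 3 reads over the group is at least 9.75-fold higher, and Hoxc8 had 26 against 0 reads, at least 5.51-fold higher. Setting such genes to their bound left the median at 1.12. Because a gene this low passes the rule on reads through the fraction in which it is high, the count says nothing about Hox genes that had too few reads.

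The partners of Hox proteins moved the same way. Of 11 TALE homeobox genes all were tested and 9 were enriched, with a median log2 fold change of 0.83 and 0 depleted, also at an unadjusted p under 0.05 and by DESeq2. Pbx3 was enriched at 1.54, and Meis3 at 1.67 with 12.9 and 15.7 against 5.52 and 3.59 CPM. Pbx2 (0.13) and Pbx4 (-0.09) did not pass the test.

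Retinoic acid drives Hox and Meis transcription in the embryo, and the genes that bind, sense and degrade it lay on both sides. Crabp2 and Crabp1, which carry retinoic acid within the cell, were enriched. Crabp2 (chr3:87948666-87953376) was at 41.9 and 44.3 CPM in P-bodies and 4.94 and 4.46 CPM in cytoplasm, a log2 fold change of 3.2 (SE 0.15), and Crabp1 at 72.3 and 64.2 against 12.8 and 10.1 CPM, a log2 fold change of 2.58 (SE 0.13). Of the receptor genes Rara was enriched at 0.32, and Rxrb (-0.57), Rxrg (-1.5) and Rarg (-0.34) were depleted; Rarg had an adjusted p of 0.0487 and did not pass by DESeq2 (0.212). Cyp26a1, whose enzyme breaks retinoic acid down, was depleted at -1.19 (adjusted p = 0.000168; 0.0574 in the fit of all 20 libraries). In all 5 of 18 tested genes of the list were enriched and 6 depleted (3 in the fit of all 20 libraries), with a median of 0.09.

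Of the neural progenitor genes 7 of 15 tested were enriched and 1 depleted, with a median log2 fold change of 0.95, where 26.5% of all genes were enriched and 24.2% depleted; 6 of the 15 reached 10 CPM, and 8 of the 23 genes on the list had under 10 reads. Neurod1, a proneural factor, was at 59.4 and 61.3 CPM in P-bodies and 7.85 and 8.29 CPM in cytoplasm, a log2 fold change of 2.9 (SE 0.12). Pax6, a regulator of early neural fate, was at 53.9 and 52.7 against 9.16 and 13.1 CPM, a log2 fold change of 2.24. Pax3 was at 13.8 and 13.5 against 2.33 and 0.371 CPM, with a log2 fold change of 3.41 that became 5.15 without primed cytoplasm replicate 1. The summed level of the neural genes was 252 and 254 CPM in P-bodies and 139 and 141 CPM in cytoplasm. The exception was Nes, the intermediate filament nestin, at 14.4 and 16.7 against 35.0 and 29.6 CPM, a log2 fold change of -1.05. Sox1, a defining marker, was at 5.66 and 9.16 against 4.21 and 5.82 CPM and did not pass (adjusted p = 0.123).

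Endoderm genes lay on the other side. Of 26 tested, 22 were depleted and 2 enriched, with a median log2 fold change of -1.65; 12 of the 26 reached 10 CPM, and the fit of all 20 libraries called 8 of them depleted. Lama1, a laminin chain of basement membrane, was at 9.2 and 11.3 CPM in P-bodies and 63.9 and 59.9 CPM in cytoplasm, a log2 fold change of -2.59 (SE 0.12), and Apob, a lipoprotein of visceral endoderm, at 4.56 and 5.73 against 39.2 and 25.9 CPM, a log2 fold change of -2.65 (SE 0.22). The defining factors were rare: Sox17 had 14 and 9 reads in P-bodies and 28 and 25 in cytoplasm, Gata6 12 and 20 against 26 and 40, and Foxa2 7 and 9 against 17 and 25. All 3 were depleted, at -1.85, -1.68 and -2.02. Summed over the list the level was 2140 and 2175 CPM in P-bodies against 3504 and 3306 CPM in cytoplasm. A few cells of another type in the culture and a low level in every cell cannot be told apart in bulk RNA. The tissue plasminogen activator gene Plat was enriched at 1.09, with 34.0 and 35.0 against 18.3 and 14.2 CPM.

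Primitive streak and mesoderm genes were near the limit of detection: 1 of the 15 tested reached 10 CPM. Of these 6 were depleted and 1 enriched, with a median of -0.76, while the fit of all 20 libraries called 1 depleted and DESeq2 2. T, the streak factor Brachyury, had 8 and 4 reads in P-bodies and 12 and 13 in cytoplasm, a log2 fold change of -1.69 (adjusted p = 0.0224), a call lost without primed P-body replicate 2 (adjusted p = 0.136). Eomes, at 6.33 and 6.25 against 6.83 and 8.42 CPM, did not pass the test.

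The core pluripotency network did not move as a block: 5 of 13 genes were enriched and 5 depleted, with a median of -0.05. Sox2 was at 237 and 255 CPM in P-bodies and 49.7 and 57.2 CPM in cytoplasm, a log2 fold change of 2.2 (SE 0.082, adjusted p = 8.9e-10). Its partner Pou5f1 (Oct4) was on the other side, at 130 and 134 against 198 and 215 CPM. Tdgf1, the Nodal co-receptor Cripto, was the most depleted of the network, at 296 and 299 against 1062 and 1069 CPM, a log2 fold change of -1.84 (SE 0.045), and Utf1 followed at -1.23. For Nanog the libraries read 170 and 166 against 149 and 147 CPM, a log2 fold change of 0.18 (adjusted p = 0.0269) that no longer passed without P-body replicate 1 (adjusted p = 0.179), P-body replicate 2 (0.108) or cytoplasm replicate 2 (0.0504), in the fit of all 20 libraries (0.571) or by DESeq2 (0.091). Without P-body replicate 1, 3 of the 13 were enriched.

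Naive factors still transcribed in primed cells were enriched in 12 of 22 cases and depleted in 4, with a median of 0.50; the fit of all 20 libraries called 6 enriched, DESeq2 called 7 and the fit without P-body replicate 2 called 7. Tet2, a DNA demethylating dioxygenase, was at 269 and 268 CPM in P-bodies and 73.8 and 76.0 CPM in cytoplasm, a log2 fold change of 1.84 (SE 0.064). Morc1, which helps silence transposons in germ cells, was enriched at 1.16, with means of 22.7 and 10.1 CPM. Zfp42 (Rex1) was at 79.1 and 82.2 against 47.5 and 49.5 CPM. By contrast Fgf4, the growth factor that drives exit from the naive state, was at 19.5 and 23.1 against 68.6 and 71.7 CPM, a log2 fold change of -1.72 (SE 0.11), and Esrrb was depleted at -1.23. The summed level of the list was 1645 and 1636 CPM in P-bodies and 2013 and 1874 CPM in cytoplasm, so the most abundant members did not follow the median.

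Primed and formative genes were split, with 11 of 23 enriched, 8 depleted and a median of 0.17; in the fit of all 20 libraries 6 were enriched and 5 depleted. Sox4, a factor of progenitor cells, was at 821 and 868 CPM in P-bodies and 324 and 299 CPM in cytoplasm, a log2 fold change of 1.44 (SE 0.054). Sox3 (2.67) and the cadherin gene Cdh2 (1.7) were enriched as well. The de novo DNA methyltransferases were depleted, Dnmt3a at 138 and 140 against 374 and 407 CPM with a log2 fold change of -1.49 (SE 0.061), and Dnmt3b at 274 and 261 against 471 and 528 CPM with -0.9 (SE 0.061). Etv4, an effector of FGF signalling, was depleted at -2.35. Fgf5, with 23.6 and 26.2 against 30.4 and 28.8 CPM, did not pass (adjusted p = 0.0961), and Otx2 (0.41) lost its call without P-body replicate 1 (adjusted p = 0.071).

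**Figure D4:**
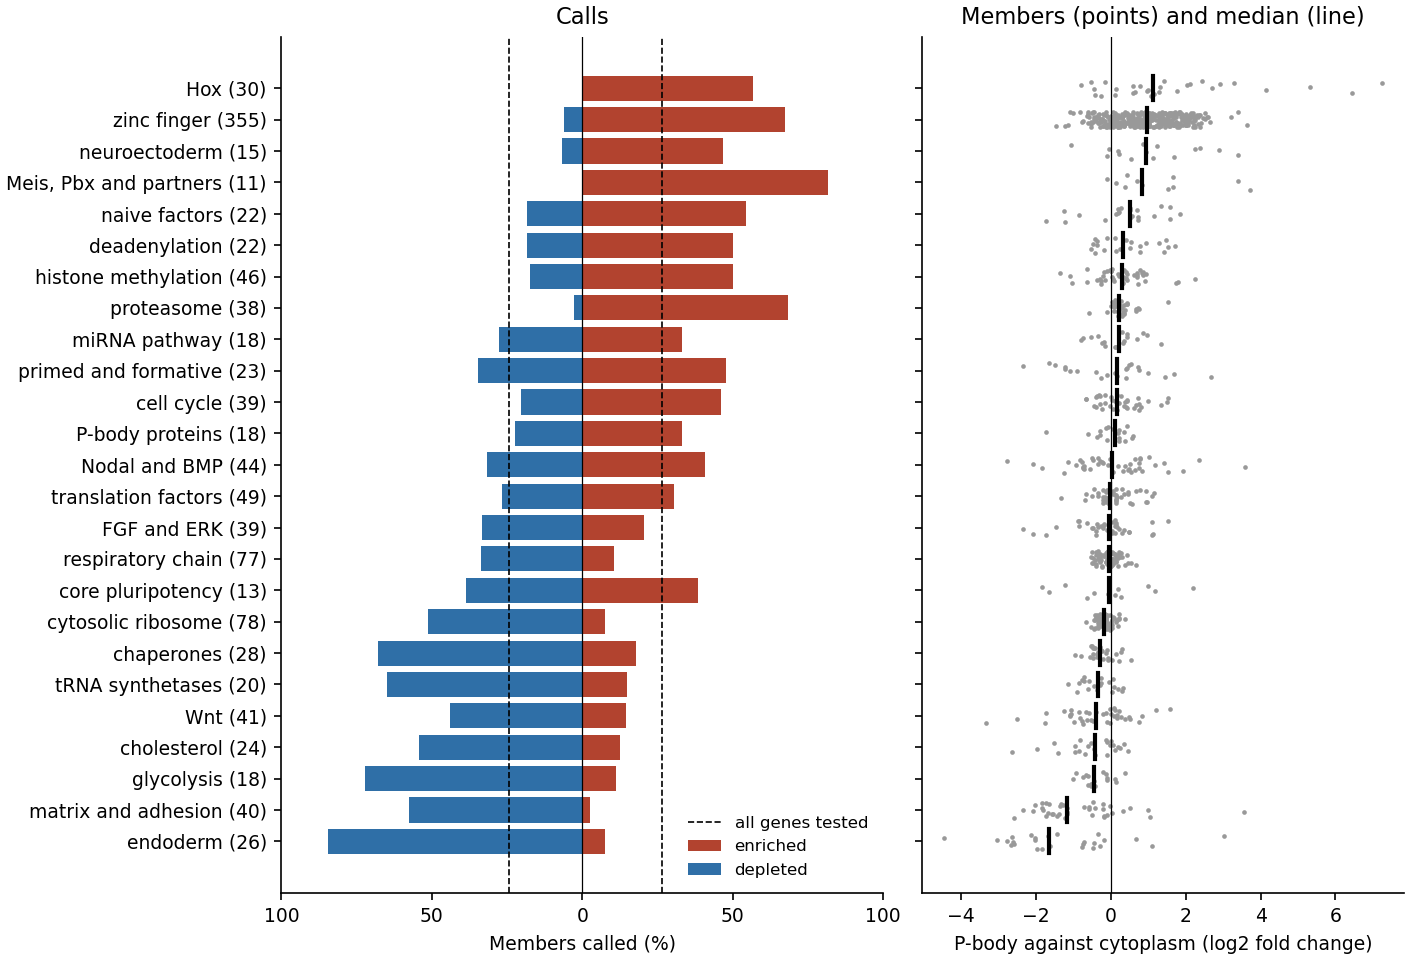
Left, percent of the tested members of 25 gene lists that were enriched (red, to the right) or depleted (blue, to the left), with the number tested in parentheses; dashed lines mark 26.5% enriched and 24.2% depleted over all genes tested. Right, log2 fold change of each tested member (points) and the median (black line), from 1.12 for Hox genes, whose points past 5 have 0 reads in cytoplasm and are no bounds, to -1.65 for endoderm genes.

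Genes of the activin, Nodal and BMP pathways, which act on the primed state, lay on both sides. The ligand Nodal was at 148 and 149 CPM in P-bodies and 360 and 339 CPM in cytoplasm, a log2 fold change of -1.24 (SE 0.058), and Lefty2, its inhibitor, was depleted at -0.94. Of the transducers Smad1 (1.01) and Smad2 (0.76) were enriched, and Smad3 (-0.72) and the inhibitory Smad7 (-1.14) were depleted. Smad4, the common partner, was at 185 and 186 CPM in P-bodies, while its cytoplasm libraries read 17.4 and 53.6 CPM and so differed by far more than the replicates of most genes; its log2 fold change was 2.35 (SE 0.28). Id1, a target of BMP, had means of 21.7 and 7.56 CPM, a log2 fold change of 1.53, and Id2 followed at 1.42. In all 18 of 44 tested genes were enriched and 14 depleted, with a median of 0.02, and the fit of all 20 libraries called 5 depleted.

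In the FGF and ERK pathway 8 of 39 genes were enriched and 13 depleted, with a median of -0.04 (4 and 5 in the fit of all 20 libraries; 5 enriched by DESeq2 and 5 without P-body replicate 2). The GTPase gene Nras was enriched, at 337 and 344 CPM against 117 and 117 CPM, a log2 fold change of 1.54 (SE 0.058). The ligand Fgf17 was depleted, at 5.74 and 5.9 against 25.6 and 23.4 CPM, a log2 fold change of -2.07. Wnt pathway genes were enriched in 6 and depleted in 18 of 41 cases, with a median of -0.39. Among the depleted receptors were Lrp5 at -2.51 (SE 0.23), Lrp6 at -1.07, Lgr4 at -1.05 and the Frizzled genes Fzd9, Fzd10 and Fzd7 at -1.77, -1.72 and -1.24. The transcription factor Tcf7l2 was enriched at 1.59, with 41.1 and 42.7 against 14.5 and 13.4 CPM, and Ctnnb1, which encodes beta-catenin, had means of 1038 and 1062 CPM and did not pass. Eph receptors and ephrins were enriched in 8 and depleted in 6 of 20 cases, with a median of -0.03; Efnb1 was enriched at 1.1 and Epha7 at 0.92.

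Genes for the extracellular matrix and its receptors were depleted in 23 of 40 cases and enriched in 1, with a median of -1.18. The laminin gene Lama1 (-2.59), named above with the endoderm genes, had the lowest value here too, so these lists overlap and their counts are not independent. Lama5 was at 144 and 145 CPM in P-bodies and 709 and 762 CPM in cytoplasm, a log2 fold change of -2.34 (SE 0.055), and Col4a2 at 30.6 and 34.5 against 144 and 133 CPM, a log2 fold change of -2.09 (SE 0.091). Cholesterol genes were depleted in 13 and enriched in 3 of 24 cases, with a median of -0.43. Idi1, an isomerase of the cholesterol synthesis pathway, was enriched at 0.35.

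The largest list with a shift towards P-bodies was that of numbered zinc finger (Zfp) genes, most of which encode DNA-binding repressors. Of 355 tested, 239 were enriched and 21 depleted, with a median log2 fold change of 0.96, and 9 were depleted in the fit of all 20 libraries. Zfp948 was at 405 and 400 CPM in P-bodies and 71.8 and 63.6 CPM in cytoplasm, a log2 fold change of 2.57 (SE 0.069), and Zfp60 at 295 and 274 against 48.0 and 46.7 CPM, with 2.59 (SE 0.073). Zfp941 was at 430 and 559 against 80.7 and 77.8 CPM. Zfp692 lay on the other side, at 30.2 and 25.1 against 64.1 and 65.2 CPM, a log2 fold change of -1.23. The list was also low in GC3, with a median of 49.4% against 61.4% over all genes. The 173 genes under the list's median GC3 of 49.4% held 156 enriched and 1 depleted gene, and the 174 at or above it held 81 and 19, so most of the depleted members lay in the upper part of the list's GC3.

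Tandem zinc fingers are joined by a conserved linker of 5 residues, whose codons make the difference visible in a short stretch. The linker was found by translation in 196 of 237 enriched genes with a coding sequence (82.7%), in 11 of 20 depleted genes (55.0%) and in 49 of 90 genes that were not called (54.4%). Its codons ended in G or C in 40.3% of cases in enriched, 67.3% in depleted and 56.2% in genes not called. The commonest spellings, with capitals where a codon ends in G or C, were these.
enriched, 153 copies in 56 genes: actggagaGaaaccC
enriched, 108 copies in 51 genes: actggagaGaaacct
depleted, 3 copies in 3 genes: acaggGgaGaaGccC
depleted, 3 copies in 3 genes: actggGgaaaaGcct
The same 5 residues were thus mostly written with codons ending in A or T in enriched genes. Tandem fingers share sequence between paralogs, so reads within them may be split between genes.

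Chromatin regulators were enriched in 23 of 46 cases and depleted in 8, with a median of 0.31 (5 depleted in the fit of all 20 libraries and 5 without P-body replicate 1). Kmt2e, a SET domain protein of the trithorax group, was at 849 and 819 CPM in P-bodies and 173 and 179 CPM in cytoplasm, a log2 fold change of 2.24 (SE 0.051). Mtf2, a Polycomb accessory protein, was at 1361 and 1321 against 408 and 402 CPM, with 1.73 (SE 0.044), and Bmi1 was enriched at 1.8. Other methyltransferase genes were depleted, namely the H3K4 methyltransferase genes Kmt2d (-1.36) and Kmt2b (-1.1), and the H3K9 methyltransferase gene Ehmt2 (-1.03). DNA methylation genes were enriched in 6 and depleted in 5 of 14 cases (3 depleted in the fit of all 20 libraries), with a median of -0.01.

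DNA repair genes were enriched in 19 and depleted in 14 of 55 cases, with a median of 0.15, which is 34.5% and 25.5%, near the 34.7% and 29.7% over all genes of at least 10 CPM, a level that 52 of them reached; 3 were depleted in the fit of all 20 libraries, 9 by DESeq2 and 7 without P-body replicate 1. Ercc5, an endonuclease of nucleotide excision repair, was at 339 and 336 CPM against 90.5 and 90.7 CPM, a log2 fold change of 1.9 (SE 0.06), and Msh6, of mismatch repair, was depleted at -0.77. Cell cycle genes were enriched in 18 and depleted in 8 of 39 cases, with a median of 0.16 (4 depleted in the fit of all 20 libraries, and 4 or 5 without cytoplasm replicate 2 or either P-body library). The retinoblastoma gene Rb1 was enriched at 1.53, and Ccnd2 at 1.5. The paralogous cyclins E differed: Ccne2 was enriched at 1.35 and Ccne1 depleted at -0.65 (SE 0.067). Centrosome and kinesin genes were enriched in 38 and depleted in 26 of 96 cases, with a median of 0.14 (12 depleted in the fit of all 20 libraries). They ran from Kif21a at 1.89 to Kif26a at -2.32, with pericentrin, Pcnt, at -2.22. Deubiquitinases were enriched in 18 and depleted in 15 of 50, with a median of -0.05 (7 depleted in the fit of all 20 libraries). Their shares lay near the 34.7% and 29.7% over all genes of at least 10 CPM. Those of the centrosome and kinesin genes lay near them too, though less closely. The counts of these lists are thus no result about them.

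Of the mRNAs for the P-body proteins themselves, 6 of 18 were enriched and 4 depleted, with a median of 0.12. These 33.3% and 22.2%, and the 33.3% and 27.8% of the microRNA pathway genes below, lay near the 34.7% and 29.7% over all genes of at least 10 CPM. Lsm14a was at 122 and 127 CPM in P-bodies and 90.4 and 99.3 CPM in cytoplasm, a log2 fold change of 0.39 (SE 0.076), and its reads may include the construct, which was not tested. Eif4enif1, which links eIF4E to P-bodies, was enriched at 0.43, and the decapping enzyme gene Dcp2 at 0.6. Edc4, the decapping scaffold, was depleted at 178 and 186 against 270 and 288 CPM (-0.62, SE 0.06), and Dcp1a, at 65.0 and 60.5 against 66.7 and 68.8 CPM, did not pass (adjusted p = 0.302). Deadenylation genes were enriched in 11 and depleted in 4 of 22 cases, with a median of 0.32. Cnot6, a catalytic subunit of CCR4-NOT, was at 477 and 475 against 141 and 147 CPM, a log2 fold change of 1.72 (SE 0.055), while Cnot3, a regulatory subunit, was depleted at -0.52. MicroRNA pathway genes were enriched in 6 and depleted in 5 of 18 (3 depleted in the fit of all 20 libraries, by DESeq2 and without P-body replicate 1). The GW182 genes Tnrc6a (1.35) and Tnrc6b (0.98), which join Argonaute to deadenylases, were enriched, and Dicer1 (-0.8), Xpo5 (-0.73) and Ago2 (-0.52) were depleted.

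MicroRNA families known in ES cells were read through their sites in 3′ untranslated regions. The seed, bases 2 to 8, is in capitals, and the sequences are from RefSeq. The first 2 share a seed and belong to the family that is abundant in pluripotent cells, and let-7a rises on differentiation.
mmu-miR-294-3p: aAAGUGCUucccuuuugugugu
mmu-miR-302b-3p: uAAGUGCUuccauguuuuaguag
mmu-let-7a-5p: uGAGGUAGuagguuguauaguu
The site for the shared seed (AGCACTT, on the transcript strand only) was in 22.1% of the 3′ untranslated regions of enriched genes, 14.9% of depleted and 15.8% of genes not called, and in 17.7% of all 9566 regions of genes of at least 10 CPM. Per kilobase this was 0.148, 0.123 and 0.126 sites. The let-7 site (CTACCTC) was in 10.5%, 10.7% and 9.85%, with 10.3% over all regions, or 0.0644, 0.0855 and 0.0736 sites per kilobase. The AU-rich pentamer ATTTA was in 80.4% of enriched, 66.2% of depleted and 66.2% of uncalled genes, with 71.1% over all, and none of these motifs contains another. Enriched genes had longer 3′ untranslated regions, with a median of 1407 against 1072 and 1017 bases, which raises any such share. A match describes the letters only and is not a site in use.

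Housekeeping lists moved little per gene. Proteasome subunits were enriched in 26 of 38 cases and depleted in 1, with a median of 0.23 and 12 enriched in the fit of all 20 libraries; the immunoproteasome subunit Psmb8 was at 39.7 and 41.9 CPM against 14.4 and 14.1 CPM, a log2 fold change of 1.52 (SE 0.12). Cytosolic ribosomal protein genes were depleted in 40 and enriched in 6 of 78 cases, with a median of -0.17; without P-body replicate 2 the depleted count was 23, in the fit of all 20 libraries 3 were depleted and 0 enriched, and 2 or 3 were enriched without either P-body library or cytoplasm replicate 2. Rplp0 was at 761 and 723 against 1180 and 1187 CPM, a log2 fold change of -0.67 (SE 0.043). Mitochondrial ribosomal protein genes were enriched in 17 and depleted in 8 of 77 cases, with a median of 0.05 (8 and 1 in the fit of all 20 libraries, 11 enriched without either P-body library, 4 or 2 depleted without P-body replicate 1 or 2), and respiratory chain genes in 8 and 26 of 77, with a median of -0.05 (3 and 11 in the fit of all 20 libraries, 15 enriched without cytoplasm replicate 1).

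Cytosolic aminoacyl-tRNA synthetase genes were depleted in 13 and enriched in 3 of 20 cases, with a median of -0.33, and Vars was the most depleted named member at -1.14, with 328 and 334 against 682 and 774 CPM. Chaperone genes were depleted in 19 and enriched in 5 of 28 cases, with a median of -0.29 (1 enriched in the fit of all 20 libraries). Hspd1, the mitochondrial chaperonin, was at 486 and 484 against 845 and 835 CPM, while Hspa8 was enriched at 0.54, with 3971 and 3902 against 2757 and 2666 CPM. Glycolysis genes were depleted in 13 and enriched in 2 of 18 cases, with a median of -0.45, among them the phosphofructokinase genes Pfkp (-1.0) and Pfkl (-0.93). Translation factors were enriched in 15 and depleted in 13 of 49 cases, with a median of -0.02 (6 depleted in the fit of all 20 libraries, 8 without P-body replicate 1). These 30.6% and 26.5% lay near the 34.7% and 29.7% over all genes of at least 10 CPM. The cap-binding protein gene Eif4e was enriched at 534 and 524 against 254 and 240 CPM, a log2 fold change of 1.1 (SE 0.052). Its scaffold partner Eif4g1 was depleted at 240 and 265 against 626 and 633 CPM, a log2 fold change of -1.32 (SE 0.056).

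The remaining lists gave mixed counts, to be read beside the 26.5% enriched and 24.2% depleted over all genes tested. Germ cell genes were enriched in 5 and depleted in 3 of 18 cases, with a median of 0.13 (2 enriched in the fit of all 20 libraries). Among the enriched was Prdm1, which encodes the germ cell regulator Blimp1, at 93.9 and 88.9 against 23.5 and 20.8 CPM, a log2 fold change of 2.05 (SE 0.1). Imprinted genes were enriched in 10 and depleted in 8 of 23 cases, with a median of 0.1 (5 depleted in the fit of all 20 libraries); Igf2r was depleted at -1.87. Replication-dependent histone genes were enriched in 15 and depleted in 8 of 65 cases, with a median of 0.16 (3 and 1 in the fit of all 20 libraries; 4 depleted without cytoplasm replicate 1 and 2 without P-body replicate 2), but they are near-identical copies that share reads, and H2ac18 and H2ac19 had the same values. Genes of the 2-cell-like state were enriched in 1 and depleted in 3 of 19, with a median of -0.09 (5 enriched without cytoplasm replicate 1 and 10 depleted without replicate 2). Nuclear long noncoding RNAs were enriched in 3 and depleted in 3 of 12, with a median of 0.04, trophoblast genes in 1 and 1 of 11 (median 0.02; summed level 299 and 305 against 395 and 352 CPM), fibroblast genes in 4 and 3 of 9 (median 0.0) and protocadherins outside the clusters in 2 and 2 of 8 (median -0.08). By share of reads, the ferritin light chain gene Ftl1 led the P-body libraries with 0.827% and 0.823%, and the ribosomal RNA precursor Rn45s led the cytoplasm libraries with 0.876% and 0.729%.

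Enrichment in primed cells was set against that in naive cells and MEFs by the difference of the 2 log2 fold changes in 1 fit. Against naive cells 1960 of 17199 genes (11.4%) had the higher enrichment in primed and 2389 (13.9%) in naive cells, and against MEFs 4210 of 18216 (23.1%) in primed and 3370 (18.5%) in MEFs, 41.6% in all. Both differences use the same primed libraries, so they are not independent of each other. The counts against naive cells depended on single libraries: without either primed P-body library 696 or 677 genes were higher in primed cells, and without either naive cytoplasm library 3181 or 3495.

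The 30 Hox genes tested were those with enough reads in primed libraries, so their counts against other cells are a description and support no difference between states. Of the 30 Hox genes tested in primed cells, 13 had a higher enrichment than in naive cells and 0 a lower one (0 at an unadjusted p under 0.05 and by DESeq2), with 6 to 8 left under the fits without 1 primed or naive P-body or primed cytoplasm library, and 15 a higher and 1 a lower one than in MEFs. Naive P-bodies had 1 enriched and 1 depleted among 24 Hox genes tested, where 22.6% of all genes were enriched and 15.4% depleted. Hoxa2 was at 1.11 and 0.942 CPM in naive P-bodies and 0.522 and 1.75 CPM in naive cytoplasm, so it was low there, and the difference of log2 fold changes was 3.61 (SE 0.76, adjusted p = 0.00892). Of the 11 TALE genes 6 were higher in primed than in naive cells, 2 lower (2 or 3 higher when 1 primed or naive P-body or primed cytoplasm library was left out), and 9 were higher than in MEFs. Rarb, at 8.66 and 7.11 CPM in naive P-bodies and 5.44 and 10.8 CPM in naive cytoplasm, differed by 3.43 (SE 0.52, adjusted p = 0.00197).

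Zinc finger genes went the other way against naive cells and the same way against MEFs. Of the 355 genes 132 had a lower enrichment in primed than in naive cells and 16 a higher one, with 78 and 87 lower when naive P-body replicate 1 or 2 was left out, and 227 had a higher enrichment than in MEFs and 20 a lower one. MEF P-bodies held 86 enriched and 96 depleted of 346, where 26.6% of all genes were enriched and 28.7% depleted. Over the 344 genes tested in all 3 cell types the median log2 fold change was 0.99 in primed cells, 1.66 in naive cells and -0.05 in MEFs.

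Genes for the ribosome and the respiratory chain differed between ES cells and MEFs, while their difference between the 2 ES states depended on the fit. Against naive cells 36 of 78 cytosolic ribosomal protein genes and 43 of 77 respiratory chain genes had the higher enrichment in primed cells. In the main fit none of either list had a lower one, where 11.4% of all genes were higher in primed cells. The counts of 36 and 43 depended strongly on single libraries, and were 5 and 26 in the fit of all 20 libraries. They do not settle whether the ES states differed for these genes. All 78 cytosolic ribosomal protein genes were enriched in MEF P-bodies, where the median was 1.38 against -0.17 in primed cells, and 77 of 78 had the lower enrichment in primed cells. Of the 77 respiratory chain genes 74 had the lower enrichment in primed cells, with medians of 1.33 in MEFs and -0.05 in primed cells. Matrix and adhesion genes leaned to the cytoplasm in all 3 cell types. In naive cells 17 of 36 were depleted, where 15.4% of all genes were, and in MEFs 30 of 40, where 28.7% of all genes were. Over the 36 genes tested in all 3 cell types the medians were -1.2 in primed cells, -0.96 in naive cells and -1.08 in MEFs. Proteasome genes had a median of 0.23 in primed cells, -0.06 in naive cells and 0.91 in MEFs.

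**Figure D5:**
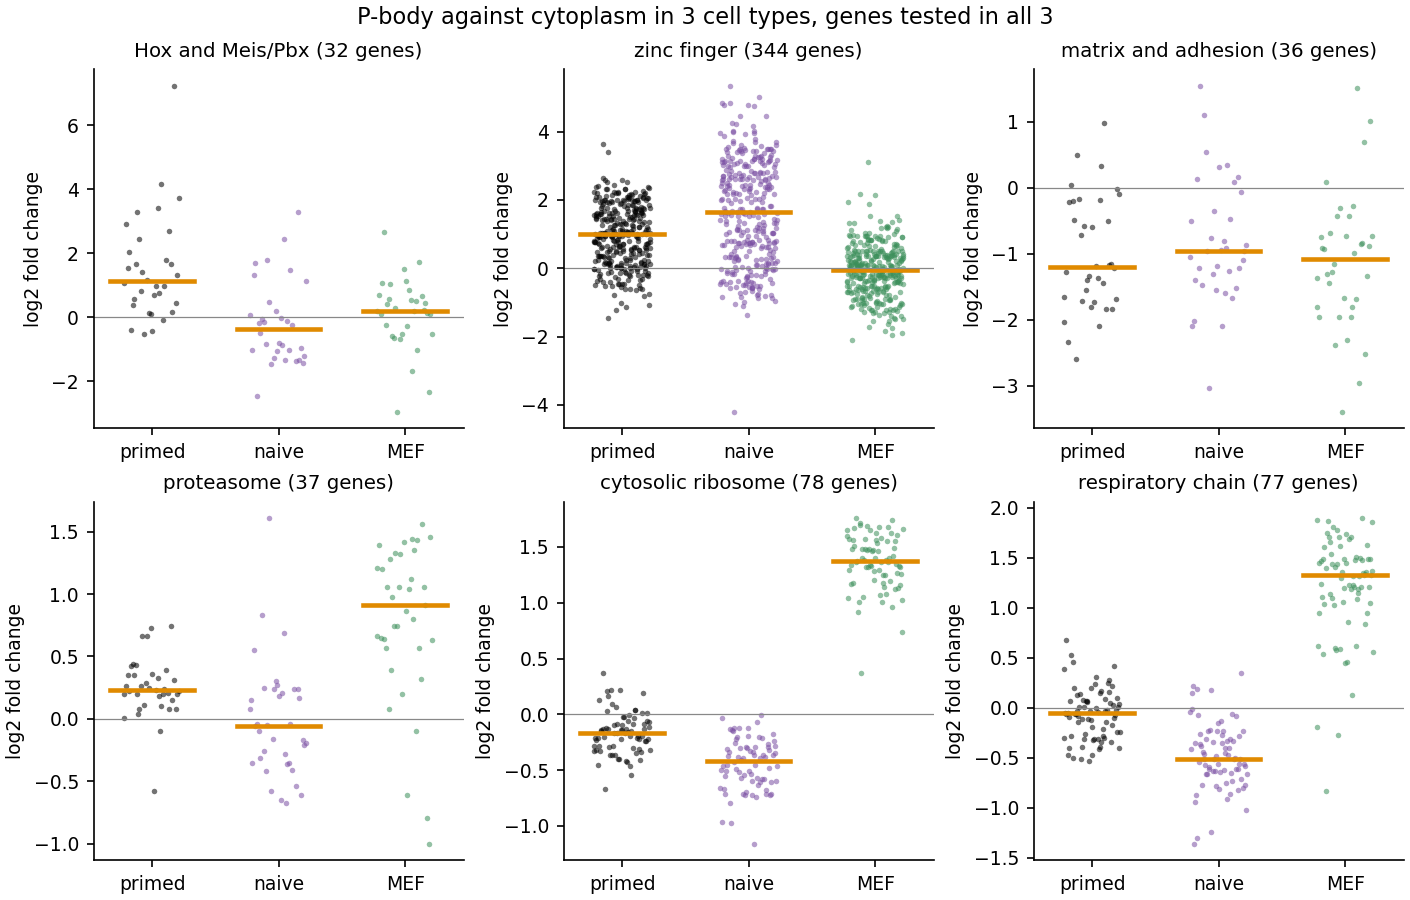
Log2 fold change of P-bodies against cytoplasm in primed ES cells, naive ES cells and MEFs for the genes of 6 groups that were tested in all 3 cell types; each point is a gene and the orange line the median. The medians of Hox and TALE genes are 1.12, -0.37 and 0.2, and those of cytosolic ribosomal protein genes -0.17, -0.42 and 1.38; the highest Hox point has 0 reads in primed cytoplasm and is no bound.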

How the data were processed

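RNA of P-body and cytoplasm fractions was read by SMART-Seq v4 and Nextera XT libraries, a kit that does not mark strand. Per the labels and the study's methods, the authors aligned reads with HISAT2 to mm10 and counted them with featureCounts; the deposited gene values are estimated counts, since 17.6% to 20.9% of values per primed library were not whole. These were rounded. Another 16 per-sample columns of the deposited table, belonging to no sample described here, were not used. Genes with at least 10 reads over the 4 primed libraries were tested with edgeR 4.0.16 (TMM, quasi-likelihood test, Benjamini-Hochberg adjustment, adjusted p under 0.05) in R 4.3.3. CPM uses TMM-scaled library sizes. Alternatives were DESeq2 1.42.0, its size factors, other filters, a replicate block, all 20 libraries in 1 fit, and leaving out each library. Differences between cell types came from an interaction term. On simulated counts of 15981 genes, 97% of 100 changes of log2 1 and 67% of 100 changes of log2 0.5 were recovered, with 11 false calls. The changed genes were drawn only from those with many expected reads, and were far fewer than the genes called here. The simulated spread followed a fitted trend, with none particular to a gene. These rates do not apply to genes of low level.

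Named genes were the 12 largest called changes each way among genes of at least 10 CPM whose fractions did not overlap, up to 3 called members of each list each way of at least 5 CPM, the 5 largest differences between cell types each way, the 5 most abundant genes of each fraction and 15 fixed genes; further members of a list were named for their role after their values were seen. Some genes that met these rules are not reported here. The members, lists and genes were chosen with earlier results of these data known. Sequences came from GENCODE M21 transcripts, matched for 97.6% of members, and RefSeq.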

Additional observations from a re-analysis of the deposited data

Results flagged for a closer look

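The enrichment of several named genes in primed P-bodies differed from that in naive cells or MEFs by a test of the difference itself (edgeR's quasi-likelihood test, Benjamini-Hochberg adjustment), given here as the difference of log2 fold changes. Among genes called in primed cells, of at least 10 CPM there and with at least 10 reads in each of the 4 groups compared, the largest differences from naive cells towards primed cells were those of Ier5l (4.51, SE 0.52), Crabp1 (3.66, SE 0.37), Hoxa2 (3.61, SE 0.76), Rarb (3.43, SE 0.52) and Lhfp (3.21, SE 0.53). Towards naive cells they were those of Trh (-5.16, SE 0.7), Fgf17 (-4.28, SE 0.4), Myc (-4.26, SE 0.51), Pak3 (-4.18) and Lpar4 (-4.18). Myc was at 12.6 and 15.1 CPM in primed P-bodies and 53.6 and 66.6 CPM in primed cytoplasm, and at 2.62 and 3.17 CPM in naive P-bodies and 0.224 and 0.949 CPM in naive cytoplasm. Trh was at 28.0 and 25.9 against 131 and 145 CPM in primed and 30.2 and 33.1 against 7.46 and 0.803 CPM in naive cells. The naive cytoplasm values of Pak3 and Lpar4 rested on few reads, and without naive cytoplasm replicate 2 their differences were -6.82 and -7.31.

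Of the genes followed in every comparison, Ddx6 (-1.73), Ago2 (-1.1), Dnmt3b (-1.31), Lsm14a (-0.51) and Dcp1a (-0.77) had a lower enrichment in primed than in naive cells, and Nanog (0.94) and Zfp42 (0.79) a higher one, which did not pass in the fit of all 20 libraries (adjusted p = 0.0693 and 0.276). The difference of Dnmt3b no longer passed without naive P-body replicate 1 (adjusted p = 0.0742) or 2 (0.0538), primed cytoplasm replicate 2 (0.0658) or primed P-body replicate 2 (0.0564), and that of Lsm14a without naive P-body replicate 1 (0.0753) or 2 (0.0678) or primed cytoplasm replicate 2 (0.0616). Fgf5 (-4.68) and T (-5.08) were also lower, but Fgf5 had 0 reads in naive cytoplasm and 5 in naive P-bodies, so its fitted difference is no measure of size; T had 2 and 1 reads in the naive cytoplasm libraries, and DESeq2 gave no adjusted p for it. Fgf5 no longer passed without naive P-body replicate 1 (0.11) or naive cytoplasm replicate 1 (0.0573) or 2 (0.0557).

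Against MEFs, within the same limits, the largest differences reported here towards primed cells were those of Igfbp5 (6.44, SE 0.19), Pcdh18 (5.14), Gfra1 (4.92, SE 0.32), Ptpre (4.73, SE 0.32) and Meis1 (4.22, SE 0.2), and towards MEFs those of Spon1 (-4.67, SE 0.27), Cubn (-4.47), Snhg4 (-3.63, SE 0.24) and Rn45s (-3.62, SE 0.12). Igfbp5 was at 16.4 and 14.8 CPM in primed P-bodies and 5.38 and 4.33 CPM in primed cytoplasm, and at 4.6 and 4.72 against 132 and 127 CPM in MEFs. Rn45s, the ribosomal RNA precursor, was at 3501 and 3550 against 8623 and 7234 CPM in primed cells and 23905 and 25508 against 4335 and 4959 CPM in MEFs. Of the followed genes Tet2 (2.56), Polk (2.62), Ddx6 (1.63), Lsm14a (1.49), Dcp1a (1.02), Ago2 (0.51) and Edc4 (0.36) had the higher enrichment in primed cells. Those of Ago2 and Edc4 no longer passed without primed P-body replicate 1 (0.0633 and 0.0531), primed P-body replicate 2 (0.0503 and 0.0985) or primed cytoplasm replicate 1 (0.0641 and 0.0883), and that of Edc4 also without MEF cytoplasm replicate 1 (0.0861).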

How the results depend on the processing

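No named gene that was called in the main or an alternative fit changed direction between primed P-bodies and cytoplasm. Genes called in neither were not checked for it. Most of the 242 named genes were chosen as large called changes, which makes a change of direction unlikely. Of these genes 200 kept their call in the fit of all 20 libraries, 226 by DESeq2 and 226 to 234 when 1 primed library was left out. In the fit of all 20 libraries, 5128 genes were called instead of 8209, with 2078 depleted, and 1271 had the higher enrichment in primed than in naive cells instead of 1960; this fit shares 1 estimate of spread over all groups. Leaving out 1 library at a time gave 6641 to 8043 calls between primed P-bodies and cytoplasm (3576 to 4179 enriched, 3065 to 3864 depleted). It gave 2293 to 7089 for primed against naive enrichment (677 to 3495 higher, 1452 to 3594 lower in primed), 6281 to 8208 against MEFs (3510 to 4910 and 2682 to 3616), and 2242 to 9799 for primed against naive cytoplasm (1160 to 4954 and 1082 to 4845). The count of 4349 against naive cells was 2293 without naive P-body replicate 1, 2424 without naive P-body replicate 2, 2528 and 2560 without primed P-body replicate 1 and 2, and 7089 without naive cytoplasm replicate 2; the cause was not tested. The replicate numbers do not mark shared preparations in the labels, and the deviations of same-numbered libraries had a correlation of 0.0839; with the replicate block 4210 genes were enriched and 3799 depleted. The alternatives for each gene list and for the differences of named genes between cell types were chosen after seeing the data. Genes of under 10 CPM rest on few reads, more so in the shallower cytoplasm.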

Other observations

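By annotated gene type, 13 of 45 small nucleolar RNA genes tested were depleted from primed P-bodies and 0 enriched by edgeR (0 at an unadjusted p under 0.05 and by DESeq2), with a median log2 fold change of -1.59; these 28.9% lie near the 24.2% depleted over all genes and are no result about them. Long intergenic noncoding RNAs were enriched in 42 and depleted in 32 of 223 cases, or 18.8% and 14.3%. Both shares lie under the 26.5% enriched and 24.2% depleted over all genes tested. The AU-rich pentamer ATTTA also occurred more often per kilobase of 3′ untranslated region in enriched (2.21) than in depleted (1.48) or uncalled genes (1.72), and in the longest regions, with medians of 3003, 2744 and 2944 bases, the values were 2.2, 1.47 and 1.78. These letters are A and T only, and 3′ untranslated regions of enriched genes had a median GC of 40.2% against 47.9% in depleted genes; the part of composition was not tested.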
